A study of Mus musculus with 15 samples.

Results

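Organoid lines of the second transplantation round were compared, 3 from liver metastases (Met2) and 3 from primary tumours in the colon (Primary2), which are 6 of the 15 lines of the series. They were taken by their titles, and all 43020 accessible regions of the deposited table belong to the comparison. Organoids are clusters of tumour cells grown in a gel, and each line was set up from a tumour in a C57Bl6 recipient mouse after tumour organoids had been transplanted into the colon. All 15 lines, metastasis and primary alike, carry the genotype labelled AKP, which the labels do not spell out. No line had a treatment in the labels, and they give no age for the mice. The other groups, which enter through the shared estimate of spread and are set beside the results, are Met1 and Met3 (metastases of rounds 1 and 3) and Primary3 (primary tumours of round 3), with 3 lines each.

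The assay was ATAC-seq, which uses a transposase to cut and tag DNA that is not packed by nucleosomes and so reads out chromatin accessibility. Reads therefore pile up at active promoters, at enhancers and at sites bound by transcription factors. Enhancers carry much of what distinguishes one cell state from another, so a set of regions that open or close together is a common sign that cells have changed state. The title of the series concerns the loss of GATA6, a zinc finger transcription factor of the endoderm that maintains intestinal cell identity. The comparison of round 2 asks which regions differ between tumour cells that had reached the liver and tumour cells that had stayed at the site of transplantation. Regions are given below by the peak name and the mm9 coordinates of the table, since no mm9 annotation was used here. Neither gene names nor sequences are attached to them for that reason, and the labelled cell type was not checked against marker genes.

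Depth was of the same order in both groups. Counts in regions summed to between 1469502 and 2279533 in the Met2 libraries and to between 1235330 and 1823141 in the Primary2 libraries, and the median region held 16 to 29 counts. Across the tested regions, log2 CPM (the count relative to the library's total after TMM scaling, in units of CPM) correlated between Primary2 lines at r = 0.842 to 0.881. Met2 replicate 1 stood apart, at 0.743 and 0.692 with the other Met2 lines, close to its correlations with the Primary2 lines (0.637 to 0.699). Met2 replicates 2 and 3 correlated with each other at 0.844 and with Primary2 lines at 0.698 to 0.762. These correlations are across regions of shared libraries and are given as a description.

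Of 39952 regions tested, 2480 differed between Met2 and Primary2 lines, which is 6.21% (edgeR quasi-likelihood test, Benjamini-Hochberg adjusted p under 0.05). In Met2, 1375 were more accessible (3.44% of tested regions) and 1105 less accessible (2.77%). The changes were large where they were found. The median log2 fold change was 2.08 among the higher regions and -1.92 among the lower ones, against 0.03 over all tested regions. Fitted changes reached 4-fold at 740 higher and 506 lower regions. Over the higher regions the median of the mean signal was 31.8 CPM in Met2 and, taken separately, 6.78 CPM in Primary2. Over the lower regions these medians were 8.82 and 35.8 CPM. The lower regions were somewhat wider, with a median of 913 bp against 772 bp for the higher regions and 791 bp for all tested regions.

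The 3 Met2 lines lay on one side of the 3 Primary2 lines in most called regions. No overlap was seen in 1254 of the 1375 increases and in 1098 of the 1105 decreases. Over all tested regions, called or not, the Met2 lines were all above the Primary2 lines in 12.2% and all below in 13.1%. A fitted change of at least 16-fold was called in 81 higher and 22 lower regions, but 54 and 14 of these had 3 or fewer reads in all lines of the weaker group together. In 12 higher and 2 lower regions the weaker group held no read. The sizes of such folds depend on the prior count of the fit. Only the 12 and 2 regions without a read were also set at a floor of 3 counts over the group, and the medians of both lists were the same. So few regions could hardly move a median, so this says nothing about the size of the other folds with few reads.

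The count of called regions was sensitive to single lines and to the libraries in the fit. Without Primary2 replicates 1, 2 and 3 it was 986, 1123 and 1208, and a fit of only the 6 lines of round 2 called 1176 (573 higher and 603 lower). Without Met2 replicate 3 the lower regions numbered 664. Without Met2 replicate 1, the line that stood apart, 2834 regions were called (1603 higher and 1231 lower), and 1828 of them were among the 2480. The fit of only round 2 called 3714 regions (1987 higher and 1727 lower) without that line, a setting chosen after seeing the data, against 1176 with it.

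**Figure D1:**
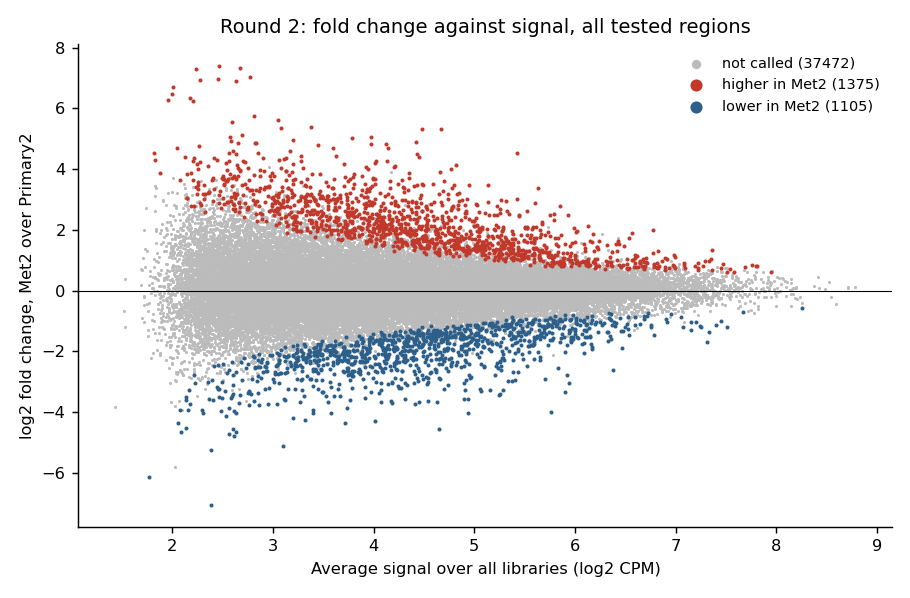
Each point is a tested region, with its average signal over all libraries (log2 CPM) on the x axis and the log2 fold change of Met2 over Primary2 on the y axis. The 1375 regions called higher are red, the 1105 called lower are blue, and called folds are largest where the signal is low.

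Calls were more frequent among regions with more signal, where the counts are also more precise. Tested regions were ranked by average signal and divided into 4 sets of 9988. In the weakest set 313 regions (3.13%) were called, in the next 571 (5.72%), and in the stronger sets 815 (8.16%) and 781 (7.82%). By width, 428 of 9241 regions under 500 bp (4.63%) and 144 of 1885 regions of 2000 bp or more (7.64%) were called. Direction moved with width as well. Among the narrow regions 292 were higher and 136 lower in Met2, whereas among the widest 60 were higher and 84 lower.

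For a part of the genome the intervals of single regions, not adjusted for their number, bounded the difference between Met2 and Primary2 below 2-fold. The 95% interval of the log2 fold change lay within 2-fold in both directions at 7720 regions. These were strong regions, with a median of 45.1 CPM and a median width of 1101 bp. They include called regions with small changes, such as peak_1816 (log2 fold change 0.60). For regions outside this set and without a call, a difference of 2-fold or more was not excluded at this depth.

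Regions are named below among the 1523 that were called, had at least the median average signal, and had no overlap between the groups (794 higher and 729 lower). The largest increase was at peak_36437 on chromosome 16 (chr16:26421943-26422683). Its signal was 45.2, 46.2 and 67.1 CPM in Met2 replicates 1, 2 and 3 and 1.16, 1.09 and 1.61 CPM in the Primary2 lines, each of which held 2 reads there. The region was thus nearly closed in every primary line and open to a similar degree in every metastasis line, and the log2 fold change was 5.33 with an SE of 0.55 (edgeR adjusted p = 3.13e-05).

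At peak_66890 (chr4:117804698-117805278) the Met2 lines held 23.9, 41.3 and 39.8 CPM, while Primary2 replicate 1 held 2.32 CPM (4 reads) and the other Primary2 lines held none. The fold change of 5.31 ± 0.78 on the log2 scale (edgeR adjusted p = 0.000419) rests on those 4 reads, and the fitted value was 9.26 without that line. At peak_63155 (chr3:134628891-134629737) the signal was higher in both groups, at 50.5, 91.0 and 89.5 CPM in Met2 against 2.32, 5.47 and 1.61 CPM in Primary2. This region had the largest mean signal in Met2 of the 10 largest increases and increased by 4.53 ± 0.66 on the log2 scale (edgeR adjusted p = 0.000465).

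Several increases of similar fold differed among the Met2 lines. At peak_6971 (chr10:39150316-39151311) the Met2 lines held 81.7, 23.8 and 46.1 CPM and the Primary2 lines 1.74, 2.74 and 0. At peak_74058 (chr5:82033720-82034319) Met2 replicate 3 held 59.4 CPM, against 11.95 and 15.2 in replicates 1 and 2 and at most 1.74 in Primary2. At peak_19674 (chr12:50244516-50245484) Met2 replicate 2 was lowest, at 7.62 CPM against 31.9 and 48.9 in the other Met2 lines and at most 2.19 in Primary2. All of these lines lay above every Primary2 line, but which metastasis line was highest changed from region to region. The other largest increases were peak_68407, peak_6674, peak_23249 and peak_86763, with log2 fold changes of 4.82, 4.51, 4.38 and 4.28.

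The largest decrease was at peak_12379 on chromosome 11 (chr11:54021960-54023278). The Primary2 lines held 84.0, 50.3 and 45.2 CPM, while Met2 replicates 1 and 2 held 3.99 and 3.14 CPM and replicate 3 held no read. This gave a log2 fold change of -4.57 with an SE of 0.60 (edgeR adjusted p = 0.00022). Its neighbour peak_12378 (chr11:54020046-54020915) showed the same pattern, with 0.664, 5.83 and 6.29 CPM in Met2 against 66.0, 59.6 and 92.8 CPM in Primary2 (log2 fold change -4.04 ± 0.49, edgeR adjusted p = 0.000109).

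The strongest primary signal among the 10 largest decreases was at peak_80765 (chr6:31098423-31099814), where the Primary2 lines held 102.5, 118.7 and 87.1 CPM. The Met2 lines held 3.99, 11.2 and 2.80 CPM there, so that a strong region of the primary lines was weak in all metastasis lines (log2 fold change -3.99 ± 0.50, edgeR adjusted p = 0.00022). At peak_9444 (chr10:98550227-98551064) the values were 1.33, 3.14 and 0.699 CPM against 31.9, 36.1 and 45.2 CPM, a log2 fold change of -4.29 ± 0.58. At peak_45518 (chr18:47634391-47635742) they were 4.65, 3.59 and 2.80 CPM against 59.7, 43.2 and 45.2 CPM, a log2 fold change of -3.73 ± 0.56. The remaining decreases, at peak_53006, peak_24873, peak_78368, peak_65961 and peak_20759, had log2 fold changes between -3.69 and -3.64. In none of these 10 regions did a Met2 line exceed 11.2 CPM, and the lowest Primary2 value was 18.6 CPM, at peak_24873.

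**Figure D2:**
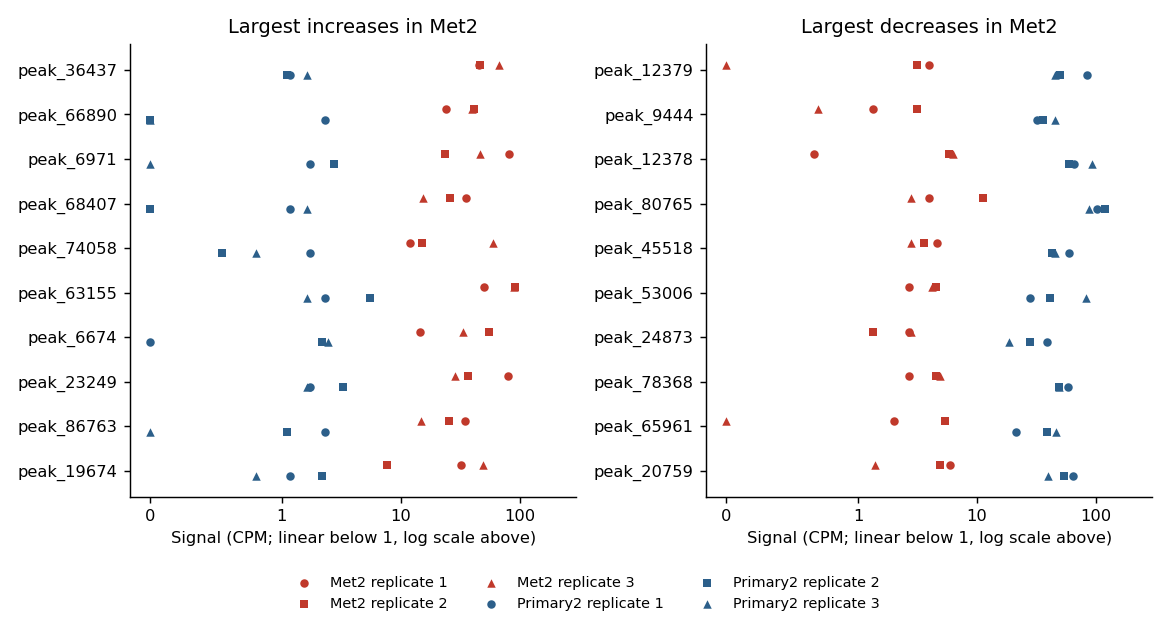
Signal in CPM of each Met2 line (red) and Primary2 line (blue) at the 10 largest increases (left) and the 10 largest decreases (right), with the replicate given by the symbol. The x axis is linear below 1 CPM and logarithmic above. In every row the red and blue symbols do not overlap, since the regions were chosen to be separated, and several of the weaker values are 0.

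The regions with the smallest p were partly others than those with the largest folds. At peak_12729 (chr11:59197780-59199155) the Met2 lines held 23.2, 15.7 and 23.8 CPM and the Primary2 lines 151.2, 117.6 and 94.4 CPM. The change was -2.55 ± 0.27 on the log2 scale (edgeR adjusted p = 3.13e-05). At peak_82652 (chr6:71916461-71917218) the values were 9.96, 8.97 and 5.59 CPM in Met2 against a mean of 80.1 CPM in Primary2 (log2 fold change -3.27 ± 0.35). At peak_20624 (chr12:80775601-80776962) they were 10.6, 12.6 and 6.29 CPM against 75.3, 69.5 and 63.7 CPM (-2.79 ± 0.33). These decreases left a measurable signal in each metastasis line.

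Among increases, peak_36437 was followed by peak_37314 (chr16:48887939-48889031), with 64.4, 70.0 and 80.4 CPM in Met2 and 9.85, 8.21 and 9.68 CPM in Primary2 (log2 fold change 2.95 ± 0.34, edgeR adjusted p = 8.54e-05). At peak_68880 (chr4:138460303-138462004) the Met2 lines spread more widely, at 134.8, 85.6 and 41.9 CPM, over Primary2 values of 8.69, 6.57 and 10.5 CPM (3.37 ± 0.41).

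At the strongest regions the differences were small. The 3 strongest regions called higher were peak_1816 (chr1:75313577-75314635), peak_78061 (chr5:135624791-135625704) and peak_100869 (chr9:13630987-13632697). Their Met2 lines held between 208.9 and 377.9 CPM and their Primary2 lines between 129.1 and 204.1 CPM, with log2 fold changes of 0.60, 0.85 and 0.81. The 3 strongest called lower were peak_97618 (chr8:87502336-87507208, -0.56), peak_12359 (chr11:53873781-53877387, -0.72) and peak_46900 (chr18:75935115-75937096, -1.01). At peak_46900 the Met2 lines held 138.1, 155.6 and 116.7 CPM and the Primary2 lines 284.4, 270.3 and 275.9 CPM. These 6 calls were close to the threshold, except that at peak_46900 (edgeR adjusted p = 0.00203), and each was lost under at least 1 other setting. With each library's chromosome medians removed, the log2 fold change was 0.39 at peak_1816 (adjusted p = 0.194), -0.32 at peak_97618 (0.251) and -0.55 at peak_46900 (0.0654).

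Most neighbours of called regions were not called themselves. Of 1895 tested neighbours within 50 kb of a higher region, 1600 were not called, 288 (15.2%, against 3.44% of all tested regions) were also called higher and 7 were called lower. The median log2 fold change of all these neighbours was 0.62. For lower regions, 1520 of 1853 neighbours were not called, 326 (17.6%, against 2.77%) were also called lower and 7 were called higher, with a median of -0.66. A neighbour of a region that is itself called is counted once from each side. Unbroken runs of called neighbours took in 268 of the higher regions, in 124 runs, and 291 of the lower regions, in 128 runs. Most were pairs, and runs of 4 or more regions numbered 1 among increases and 7 among decreases.

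The leading run of decreases was the 5 regions from peak_12378 to peak_12382 on chromosome 11, over 18.5 kb (chr11:54020046-54038586). Summed over the run, the Primary2 lines held 401.4, 384.0 and 409.8 CPM, and the Met2 lines 33.9, 106.7 and 96.5 CPM. The decrease was graded along the run, from -4.57 on the log2 scale at peak_12379 to -1.57 at peak_12382, where Met2 replicates 2 and 3 still held 49.8 and 60.8 CPM. Met2 replicate 1 was the lowest line over the run as a whole. In the other groups the same sum was 51.1 to 148.9 CPM in Met1, 62.6 to 80.1 in Met3 and 216.7 to 335.0 in Primary3.

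Both other runs of 5 decreases lay on chromosome 2. From peak_58427 to peak_58431 (chr2:173072017-173090552) the summed signal was 221.3 ± 93.0 CPM in Met2 against 596.2 ± 20.8 CPM in Primary2 (SD, n = 3). From peak_58161 to peak_58170 (chr2:168342269-168405532) it was 184.8 ± 55.3 against 429.5 ± 28.8 CPM. Of the runs of 4, the leading ones by summed fold change were peak_94011 to peak_94022 near the end of chromosome 7 (chr7:151142323-151212509), with 41.8 ± 17.5 against 234.9 ± 32.2 CPM, and peak_62653 to peak_62656 on chromosome 3 (chr3:116727015-116771341), with 36.3 ± 20.3 against 166.2 ± 30.7 CPM. In these runs the primary lines were alike, and the spread among metastasis lines was large relative to their mean.

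The run of 4 increases was at peak_95000 to peak_95003 on chromosome 8 (chr8:14985728-14996746), a chromosome whose level as a whole was lower in Met2. Summed over the run, Met2 replicates 2 and 3 held 220.6 and 247.4 CPM, but replicate 1 held 56.5 CPM, not far above the Primary2 lines at 36.5, 29.5 and 46.8 CPM. At peak_95000 itself Met2 replicate 1 held 0.664 CPM, within the Primary2 range of 0 to 6.02 CPM. The increase over this run was therefore one of Met2 replicates 2 and 3, and the Met3 lines held 199.5 to 254.5 CPM there. The run from peak_84194 to peak_84196 on chromosome 6 (chr6:96233819-96251282) had the opposite order, with 111.6 CPM in Met2 replicate 1, 33.2 and 25.9 in replicates 2 and 3, and 6.02 ± 3.51 CPM in Primary2 (SD, n = 3). At peak_471 to peak_473 on chromosome 1 (chr1:31639857-31658317) all Met2 lines were well above Primary2, at 73.1, 148.0 and 95.1 CPM against 13.5 ± 1.74 CPM.

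The lines of Met2 were therefore examined singly. At the called regions each of them differed from the Primary2 mean by about the same amount, with median log2 differences of 1.83, 1.84 and 1.82 at the higher regions and -1.86, -1.66 and -1.95 at the lower regions for replicates 1, 2 and 3. The regions were called with these same lines, which favours regions where the lines are alike, so the similar medians are partly set by that choice. Met2 replicate 1 was the metastasis line closest to the primary mean at 567 of the 1375 higher regions and fell within the Primary2 range at 64. Replicate 2 was the closest at 495 of the 1105 lower regions.

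Met2 replicate 1 also had accessible regions of its own, most of them not called. At 272 regions its log2 CPM was at least 2 above that of each of the other 5 lines of round 2. The same held for 6 regions in Met2 replicate 2, 41 in replicate 3 and at most 2 in a Primary2 line. Over these 272 regions the median signal was 42.8 CPM in Met2 replicate 1 and between 3.23 and 4.92 CPM in the other lines of round 2. In the Met1 lines it was between 9.52 and 10.2 CPM and in the Met3 lines between 3.82 and 5.18 CPM. The regions were picked by these values, and 36 of them (13.2%, against 6.21% of all tested regions) were among the 2480 called. Regions at least 4-fold below each of the other 5 lines numbered 291 in Met2 replicate 1, 245 in Met2 replicate 3 and 171 in Primary2 replicate 3. The last 2 are the libraries with the lowest totals of round 2, and the part of depth in these counts was not tested.

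The regions called in round 2 were then followed through the other 9 lines. These lines did not enter the contrast, but they shared in the filter, the scaling and the estimate of spread behind the calls. At the 1375 higher regions the median signal was 31.9, 29.1 and 31.5 CPM in Met2 and 6.37, 7.11 and 6.45 CPM in Primary2. It was 28.6 to 35.2 CPM in the Met3 lines and 6.37 to 9.46 CPM in the Primary3 lines. The Met1 lines lay in between, at 12.8 to 17.1 CPM. Regions were picked for a gap between Met2 and Primary2, so lines outside the contrast tend to fall between these groups. The position of Met1 is therefore given as a description. At the 1105 lower regions the medians were 6.99 to 9.86 CPM in Met2, 7.90 to 10.4 in Met3, 14.0 to 19.4 in Met1, 25.5 to 34.3 in Primary3 and 35.0 to 36.3 in Primary2.

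**Figure D3:**
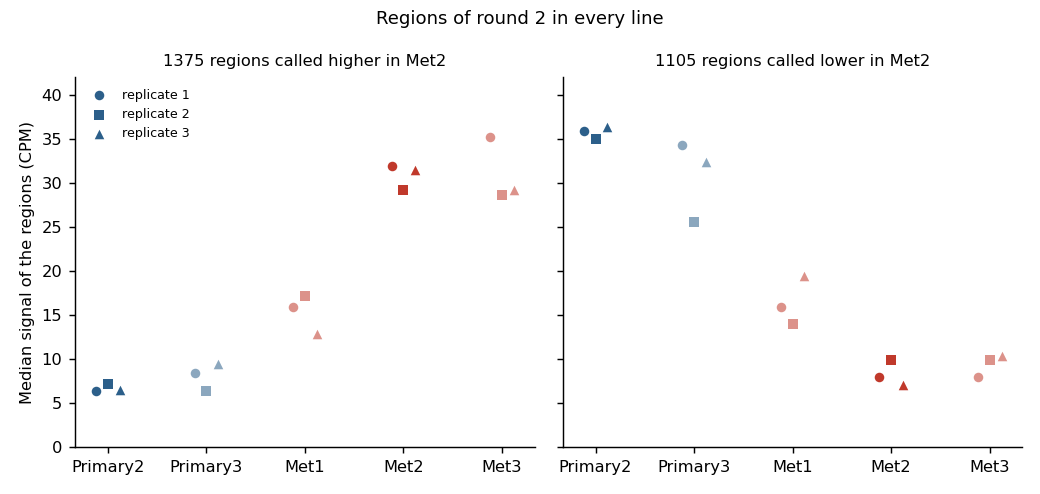
Median signal (CPM) of the 1375 regions called higher and the 1105 called lower in Met2, in each of the 15 lines, with metastasis lines red and primary lines blue. The Met2 and Primary2 values (full colour) are set by the choice of regions. The Met1 lines lie between the primary lines and the later metastasis lines in both panels. Lines outside the contrast tend to fall there because of the same choice.

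By region, the Met3 lines were nearer to the Met2 mean than to the Primary2 mean at 89.4% to 92.9% of the higher and 81.5% to 88.0% of the lower regions. For the Met1 lines the range was 48.1% to 62.3% and 43.5% to 65.6%. For Primary3 it was 24.95% to 27.1% and 4.71% to 30.8%, the last in Primary3 replicate 2, which held 285633 counts. These shares were taken only at called regions, without the same share over all tested regions beside them. How far they reflect a likeness of the lines over all regions was not tested. The labels do not say how lines of different rounds are related by descent, and these lines may share history with those of round 2.

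The difference between the metastasis effects of rounds 3 and 2 passed at 0 of 39952 regions (0%) in edgeR. An unadjusted edgeR p under 0.05 was reached at 2568 regions, and DESeq2 called 15 regions. No region is therefore described as particular to round 2. The test rests in part on Primary3 replicate 2, where 23.3% of all regions held no read, so 0 calls do not show equal effects. The named region for which the rounds differed most was peak_86763 (chr6:143996825-143997397). Met2 lines held 34.5, 25.6 and 14.7 CPM and Primary2 lines 2.32, 1.09 and 0, but in round 3 the ranges were 16.0 to 27.9 CPM in Met3 and 0 to 11.9 CPM in Primary3. Its log2 fold change was 4.28 in round 2 and 1.23 in round 3, where it was not called (edgeR adjusted p = 0.158), and the difference did not pass adjustment (adjusted p = 0.625).

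Part of the differences ran with whole chromosomes. Each region's log2 CPM was first taken relative to its mean over the 6 lines of round 2. The level of a chromosome in a line was the median of these deviations, relative to the line's median over all regions. A level thus compares the lines with each other, and groups that differ tend to fall on opposite sides of 0 by construction. On 12 of 20 chromosomes the 3 Met2 lines all lay on one side of the 3 Primary2 lines, higher on chromosomes 1, 9, 10 and 13 and lower on chromosomes 2, 3, 8, 11, 14, 17, 18 and 19. With 3 lines against 3, a 2-sided exact permutation test cannot give less than p = 0.1, so none could pass, and the adjusted p of these 12 was 0.167.

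The widest gap was on chromosome 18. Its level was -0.21, -0.23 and -0.22 in the Met2 lines and 0.31, 0.24 and 0.15 in the Primary2 lines, a difference of -0.45. The metastasis lines were nearly identical there and the primary lines less so. Of 1455 tested regions on chromosome 18, 155 were called (10.7%, against 6.21% over all chromosomes), 131 of them lower and 24 higher in Met2. With each library's chromosome medians removed, 47 were lower and 65 higher. The shift was unequal along the chromosome. It was widest in the window from 40000001 to 50000000, at -0.88, where 24 of 128 regions were called and all were lower. In that window the Met2 lines were not alike, at -0.14, -0.39 and -0.80 against 0.48, 0.46 and 0.39 in Primary2. The shift was least in the first 10 Mb, at -0.10, where the lines of both groups overlapped.

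Chromosome 1 was higher in Met2, at 0.07, 0.15 and 0.11 against -0.10, -0.11 and -0.08. Of its 2672 tested regions 161 were called higher (6.0%, against 3.44% over all chromosomes) and 56 lower (2.1%, against 2.77%). Chromosome 13 was at 0.12, 0.15 and 0.12 against -0.14, -0.09 and -0.10, with 118 of 1879 tested regions higher (6.3%) and 33 lower (1.8%). With chromosome medians removed the calls were 93 higher and 78 lower on chromosome 1 and 67 and 55 on chromosome 13. Chromosome 8 was lower in Met2 (-0.13, -0.11 and -0.16 against 0.05, 0.08 and 0.24). Of its 1764 tested regions 48 were called higher (2.7%) and 76 lower (4.3%), and with chromosome medians removed the calls were 72 and 44. The adjustment shifts all regions of a chromosome alike, so the direction of these changes follows from how it is made. On chromosomes 1 and 13 the higher calls still outnumbered the lower ones after it, as they did over the whole genome (1228 higher and 1000 lower). Over the genome 1887 of the 2480 calls were shared with the 2228 made after this adjustment.

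On other chromosomes the lines of a group disagreed. Chromosome 5 stood at 0.51 in Met2 replicate 1, -0.24 in replicate 2 and 0.09 in replicate 3, and at 0.13, -0.12 and -0.38 in the Primary2 lines, so no group difference can be read from its level. On chromosome 6, Met2 replicates 1 and 2 were at 0.22 and 0.26, whereas replicate 3 was at -0.17, below the Primary2 lines at -0.13, -0.10 and -0.12. Of 2423 tested regions on chromosome 6, 149 were called higher (6.1%, against 3.44% over all chromosomes) and 35 lower (1.4%, against 2.77%). With chromosome medians removed the calls were 98 and 57. Chromosome X did not separate the groups (0.01 ± 0.03 against 0.01 ± 0.01, SD, n = 3), and 24 of its 859 regions (2.79%, against 6.21% over all chromosomes) were called. Whether the number of copies of a chromosome differed between lines was not measured here.

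**Figure D4:**
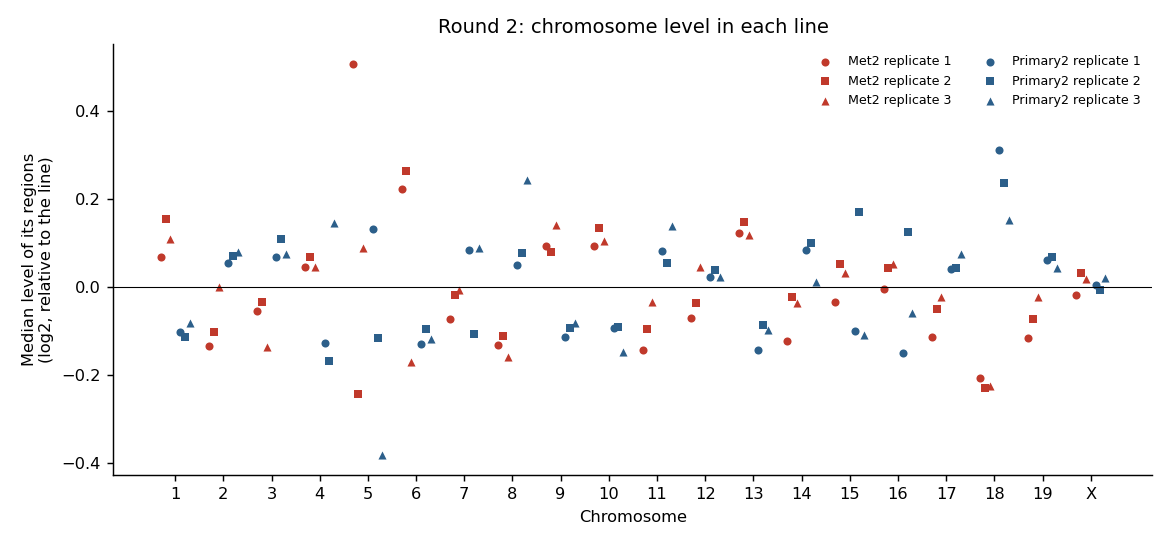
Level of each chromosome in the 3 Met2 lines (red) and the 3 Primary2 lines (blue), on the log2 scale. It is the median over its regions of the deviation from the region's mean over the 6 lines. The line's median over all regions was subtracted, and 0 is near the average of the lines. Chromosome 18 shows the widest gap, with all Met2 lines near -0.22. Chromosomes 5 and 6 are among several that show lines of 1 group on both sides of 0.

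Shifts also differed from window to window. Of 266 windows of 10 Mb with at least 20 tested regions, the Met2 lines were all above the Primary2 lines in 59 and all below in 60. The groups overlapped in 147. Single tested regions were separated in 12.2% (all above) and 13.1% (all below). A window shares the level of its chromosome, so windows on the 12 separated chromosomes are not a further result. On chromosome 5 the window from 10000001 to 20000000 stood at 0.89, 0.10 and 0.27 in Met2 and at -0.24, -0.27 and -0.73 in Primary2. Of its 84 regions 18 were called higher and 1 lower, where 3.44% and 2.77% of all tested regions were called higher and lower. In the last window of chromosome 8, from 130000001, the 23 regions stood at 0.29, -0.73 and -1.35 in Met2 and at 0.27, 0.87 and 0.97 in Primary2. Met2 replicate 1 was thus at the level of Primary2 replicate 1, while Met2 replicates 2 and 3 were far lower, and 5 regions there were called lower. The last window of chromosome 7, from 150000001, holds the run from peak_94011 to peak_94022. It was lower in all Met2 lines (-0.54, -0.06 and -0.27 against 0.31, 0.09 and 0.38), with 11 of its 80 regions called lower and 1 higher.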

How the data were processed

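ATAC-seq libraries of 15 organoid lines were prepared with the TDE1 enzyme and sequenced as paired ends, per the labels' protocols. Tools named in the submitters' processing notes are bedtools, Bowtie, MACS2, Picard and SAMtools, with build mm9. Read shifting, duplicate removal and mitochondrial filtering are not stated there. The authors deposited whole-number read counts per region for 1 region set called over all samples, 200 to 6777 bp wide.

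Groups and replicate numbers came from the titles. Regions passing filterByExpr (minimum count 10, minimum total 15) numbered 39952 of 43020 (92.9%). edgeR 4.0.16 (R 4.3.3, limma 3.58.1) used TMM and a quasi-likelihood fit with robust dispersion of 5 group means over 15 libraries. Calls needed a Benjamini-Hochberg adjusted p under 0.05 over all tested regions. Standard errors were derived from the F statistic. The labels name no sequencing batch and do not say whether lines of a group came from separate mice, and the p-values therefore reflect no more than how much these lines vary.

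Log2 CPM used a prior count of 2. Average signal was edgeR's average log2 CPM over all libraries. Named regions came from called regions with at least the median average signal and no overlap between groups: the 10 largest folds, the 3 strongest and the 3 smallest p per direction. Runs were called regions adjacent in the tested table with gaps up to 50 kb. Members, tests and naming rules were chosen with earlier results of these data known. Gene lists and motifs planned for an mm9 annotation were not used here. DESeq2 1.42.0 served as an alternative. Chromosome levels, runs and plots were made in Python 3.11.15 (matplotlib 3.10.9, numpy 2.4.6, pandas 2.3.3).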

Additional observations from a re-analysis of the deposited data

How the results depend on the processing

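With DESeq2, 2116 regions were higher. Fitting the 6 lines of round 2 alone gave 1176 calls, 573 higher and 603 lower. That fit without Met2 replicate 1, a setting chosen after seeing the data, called 3714 regions, 1987 higher and 1727 lower. In the fit of all groups, leaving out a replicate gave 986 to 2834 called regions, 509 to 1603 higher and 477 to 1231 lower. The difference between rounds was called at 15 regions by DESeq2, and it could not be fitted with only Met2 and Primary2. The cause was not tested. Same-numbered lines of both groups showed little shared deviation (r = 0.01, -0.03 and 0.09), and differently numbered lines gave r from -0.12 to 0.12. The replicate block called 1948 regions in round 2. Lines paired by handling need not deviate together over the genome, so these values cannot tell whether the numbers pair the lines. Total-count scaling, both filters, removal of chromosome medians or of a trend and leaving out the 2 shallowest libraries kept the counts within 1.5 times. The number of separated chromosomes ran from 12 to 15. Of 496 alternative values of the 31 named regions none changed direction and 38 lost the call, at the 6 regions named for strong signal. The named regions were chosen because they passed in the same data.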
